A study of Homo sapiens with 16 samples.

Results

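The genes described here are 40 members of the NF-kB pathway and of the cytokine and chemokine families, taken by symbol from the 26485 genes in the count tables and all present there. They comprise 5 NF-kB subunits, 7 IkB proteins and other feedback inhibitors, 7 signalling adaptors, ligases, kinases and receptors, 10 chemokines, 9 other cytokines and 2 further induced genes. RNA with poly(A) tails was sequenced from SW480 and SW620, human colon adenocarcinoma cell lines with high Wnt activity, cultured in DMEM and collected at passage 6. Each line carried either GFP, the mock control with high Wnt activity, or dnLEF1, a dominant-negative form of the Wnt effector LEF1 that inhibits Wnt output, with 4 libraries in each of the 4 groups and 16 in all. The study compared dnLEF1 with GFP within each line. The labels state neither the route by which the constructs were delivered nor whether a line was 1 clone. They also do not say that the libraries of a group are separate cultures, and the p-values therefore rest on a spread between samples that may be technical.

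NF-kB is a family of dimers built from RELA, RELB, REL and the products of NFKB1 and NFKB2. In resting cells IkB proteins such as NFKBIA hold the dimers in the cytoplasm, and signals from TNF, interleukin-1 or Toll-like receptors release them through the IKK kinases, whereas the noncanonical branch runs through the kinase MAP3K14, which TRAF2, TRAF3, BIRC2 and BIRC3 keep low. The dimers bind kappaB sites at genes for chemokines, cytokines and survival factors, and also at genes for their own inhibitors, which closes a feedback loop. In the intestine, epithelial cells use this output to recruit and instruct leukocytes.

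The kappaB sites of members are shown first, since they are the DNA letters through which the pathway is known to act. Promoter windows of 250 bases before the gene start (RefSeq, GRCh38.p14) were held for 30 of the 40 members, and each window was searched on both strands by exact match. The kappaB consensus was present in 18 of the 30 members (60.0%), against 11.8% of the 27305 genes with such a window. A looser core, GGANNTTCC, which overlaps the consensus at many sites, was present in 16 of the 30 members (53.3%) and 4.71% of all genes. The TCF/LEF motif CTTTGAT was present in 1 of the 30 members, CXCL8, and in 2.75% of all genes. Many members are known as NF-kB targets, so these shares describe the list and were not tested. The ELR chemokine genes CXCL1, CXCL2 and CXCL3 are shown because they carry the same block of letters, NFKBIA and TNFAIP3 because they are the feedback inhibitors, BIRC3 because it rose, and CXCL8 because it fell and holds the looser core and the TCF/LEF motif. Capitals mark kappaB consensus or looser matches and, in CXCL8, also the TCF/LEF match (ATCAAAG, the motif read on the other strand). Each sequence is the last 110 bases of its window, or 200 for CXCL8 and BIRC3, and runs to the base before the RefSeq start. NFKBIA has a further looser core, 234 to 242 bases before the start, that lies outside the printed part.
CXCL1, chr4:73869283-73869392, plus strand: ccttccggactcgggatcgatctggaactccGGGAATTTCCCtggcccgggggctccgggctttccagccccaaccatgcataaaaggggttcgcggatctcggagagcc
CXCL2, chr4:74099196-74099305, minus strand: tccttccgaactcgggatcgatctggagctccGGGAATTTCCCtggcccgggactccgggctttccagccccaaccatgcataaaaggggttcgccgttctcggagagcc
CXCL3, chr4:74038690-74038799, minus strand: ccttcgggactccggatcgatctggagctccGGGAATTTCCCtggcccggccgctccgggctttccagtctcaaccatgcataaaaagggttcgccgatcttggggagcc
CXCL8, chr4:73740369-73740568, plus strand: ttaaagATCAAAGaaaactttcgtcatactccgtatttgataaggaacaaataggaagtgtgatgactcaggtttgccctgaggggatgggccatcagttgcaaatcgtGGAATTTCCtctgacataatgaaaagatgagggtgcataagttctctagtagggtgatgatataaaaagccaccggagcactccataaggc
NFKBIA, chr14:35404750-35404859, minus strand: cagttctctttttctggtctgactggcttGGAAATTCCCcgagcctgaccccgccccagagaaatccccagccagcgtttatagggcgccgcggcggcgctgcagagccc
TNFAIP3, chr6:137867149-137867258, plus strand: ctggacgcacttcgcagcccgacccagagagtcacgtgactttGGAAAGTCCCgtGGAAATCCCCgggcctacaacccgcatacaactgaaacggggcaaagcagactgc
BIRC3, chr11:102317284-102317483, plus strand: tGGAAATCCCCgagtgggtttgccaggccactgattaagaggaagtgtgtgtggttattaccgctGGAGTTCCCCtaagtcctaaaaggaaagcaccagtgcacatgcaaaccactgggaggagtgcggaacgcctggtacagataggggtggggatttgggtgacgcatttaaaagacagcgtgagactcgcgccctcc
In CXCL8 the kappaB core lay 83 to 91 bases and the TCF/LEF match 188 to 194 bases before the start. In CXCL1 the kappaB matches lay 69 to 79 bases before it.

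**Figure D1:**
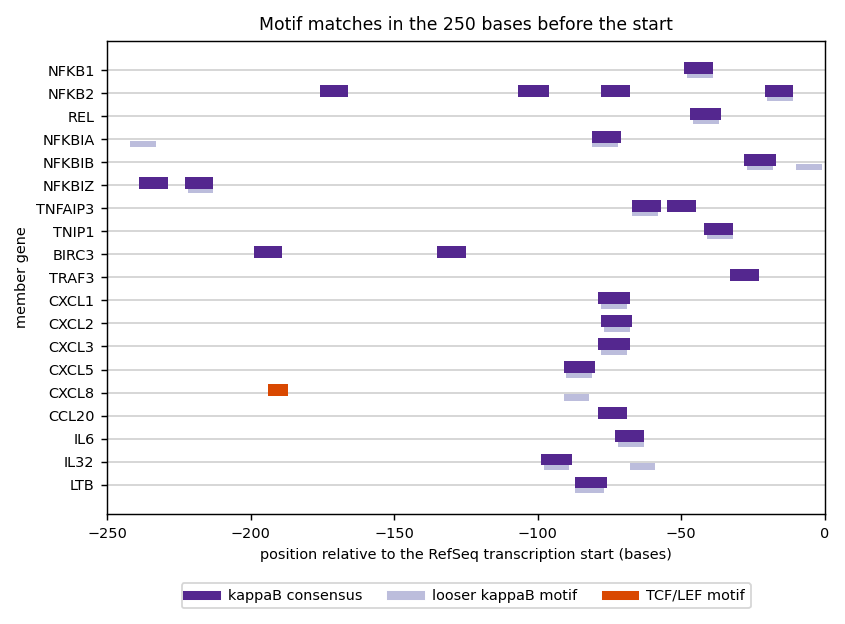
Matches of the kappaB consensus, the looser core and the TCF/LEF motif in member promoters, by distance in bases before the RefSeq start; genes with several starts show the matches of all of them (NFKB2 has 3). kappaB consensus matches appear in 18 of 30 members and the TCF/LEF motif in CXCL8 alone.

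The libraries held 17181204 to 26153506 gene counts. SW620 GFP replicate 3 stood apart in that reads aligned to more than 1 place made up 39.4% of its total, against 7.61% to 9.46% in the other 15, and these reads are in no gene count. LEF1, which counts reads of the construct too, rose in dnLEF1 cells of both lines, by 2.26 ± 0.12 log2 in SW480 and 2.79 ± 0.12 in SW620. Its level was 51.7 ± 1.89 CPM (SD, n = 4) with GFP and 246 ± 49.1 with dnLEF1 in SW480, and 3.36 ± 0.501 and 23.3 ± 2.35 in SW620, so LEF1 in SW620 dnLEF1 lay below that in SW480 GFP. AXIN2, a direct Wnt target, fell by 2.98 on the log2 scale in SW480, whereas in SW620 it was at 333 ± 14.7 CPM (SD, n = 4) with GFP and 320 ± 11.2 with dnLEF1 (log2 change -0.06 ± 0.05, edgeR adjusted p = 0.607). The SW620 values below are thus from dnLEF1 cells in which a fall of this Wnt target was not detected. The epithelial keratin KRT8 was above 3000 CPM in every library. Of 10 epithelial and colon markers, 7 could be tested in both lines, CDX2 and VIL1 among them. The colon markers CDX1, KRT20 and GPA33 were too low to be tested in either line, and CDX1 had no count in 3 of the 4 groups. The leukocyte marker PTPRC had no count in 3 groups, and FCGR3A, TYROBP and AIF1 (myeloid) and CD3D and MS4A1 (lymphoid) had none in any. Other leukocyte markers had enough counts to be tested. Of 12 myeloid markers these were CD68 and LYZ in both lines and CD14 in SW480. Of 12 lymphocyte markers they were CD4 in both lines and CD8A in SW480. In these bulk libraries, fewer cells expressing a gene and less RNA per cell cannot be told apart.

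In SW480, dnLEF1 cells had higher RNA for most of the members tested, among them all 7 IkB and feedback inhibitor genes. RNA of the neutrophil chemokines CXCL8 and CXCL1 was lower. Of the 40 members 31 had enough counts to be tested. In edgeR's quasi-likelihood test 23 of them rose and 4 fell at an adjusted p below 0.05, against 24.2% of all genes tested that rose and 24.4% that fell (48.5% either way). The libraries of the groups did not overlap for 23 of the 31, against 45.0% of all genes. A change of at least 2-fold was seen upward for 11 members and downward for 2, where the shares over all genes were 5.34% and 5.55%. The median log2 change over the 31 was 0.66, and over all genes it was 0.00. CCL2 passed the filter on low counts only through its dnLEF1 libraries and so was bound to differ. Without it 22 of 30 rose, 10 of them at least 2-fold, and the median was 0.61. The remaining 9 members (CXCL2, CXCL5, CCL20, CD40, IL1A, IL1B, IL6, IL18 and TNF) were too low to be tested.

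All 5 subunit genes changed in SW480, with 4 rising and 1 falling. Levels are given throughout as CPM, gene counts brought to one library size by TMM scaling over all 16, in the order of replicates 1 to 4. RELB, the partner of the noncanonical branch, was at 16.5, 16.6, 15.7 and 14.8 CPM with GFP and 31.7, 26.1, 28.7 and 33.0 with dnLEF1 (log2 change 0.91 ± 0.09, edgeR adjusted p = 1.43e-06). It rose in every library, whereas RELA, the main activating subunit, moved little, from 79.5, 78.2, 74.2 and 77.7 CPM to 91.0, 88.9, 91.5 and 88.9 (0.22 ± 0.06, edgeR adjusted p = 0.00616). The RELA groups did not overlap in spite of the small change. NFKB1, which encodes p105 and p50, was at 58.6, 52.4, 50.2 and 49.9 CPM against 62.1, 61.7, 64.6 and 56.3 (0.21 ± 0.07, edgeR adjusted p = 0.0244). These groups overlapped, and the call was lost without SW480 GFP replicate 2, 3 or 4 or dnLEF1 replicate 3 (adjusted p between 0.057 and 0.0754). NFKB2, which encodes p100 and p52, rose by 0.37 ± 0.07. REL, the subunit best known in lymphocytes, was the exception: it went from 12.2, 8.90, 8.76 and 10 CPM to 5.03, 7.92, 8.54 and 3.66 (-0.66 ± 0.21, edgeR adjusted p = 0.0182). The highest dnLEF1 library lay just under the lowest GFP one, and without GFP replicate 1 the adjusted p was 0.0595.

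Per kb of exon (union of GENCODE 44 exons, which understates genes with many isoforms), RELA was the highest of the subunits in SW480 GFP at 14.2 ± 0.41 CPM per kb, followed by NFKB2 at 7.34 ± 0.42, RELB at 5.31 ± 0.28, NFKB1 at 3.37 ± 0.26 and REL at 0.583 ± 0.094. These steps were each larger than the SDs, which cover the spread between libraries and not the uncertainty of the exon length. The order depends on that length: by CPM alone NFKB1 (52.8) lay above NFKB2 (41.0) and RELB (15.9). With dnLEF1 RELB reached 9.96 ± 1.0 CPM per kb and NFKB2 9.46 ± 0.56, a gap smaller than their SDs. In both SW620 groups RELA led as well, at 14.7 ± 0.70 and 14.5 ± 0.76, but RELB was at 0.924 ± 0.25 and 1.11 ± 0.14. Per kb, RELB and REL did not differ beyond their spread in SW620 GFP, where REL was at 0.964 ± 0.12. By CPM alone REL (16.5) lay above RELB (2.77) there.

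All 7 IkB and feedback inhibitor genes rose in SW480, 2 of them at least 2-fold. BCL3, a nuclear IkB protein that binds p50 and p52, was at 2.33, 2.15, 2.33 and 2.64 CPM with GFP and 8.01, 7.70, 8.46 and 8.98 with dnLEF1 (1.81 ± 0.13, edgeR adjusted p = 4.52e-08), or 3.51-fold. TNFAIP3, which encodes the ubiquitin-editing enzyme A20, went from 3.20, 2.06, 2.29 and 1.96 CPM to 8.22, 8.08, 6.48 and 6.02 (1.59 ± 0.18, edgeR adjusted p = 4.67e-06). For both genes the lowest dnLEF1 library was well above the highest GFP library. NFKBIE, an IkB that holds REL and RELA dimers, was at 9.76, 9.16, 7.95 and 8.48 CPM against 17.7, 14.8, 16.6 and 19.6 (0.96 ± 0.11, edgeR adjusted p = 5.53e-06). NFKBIA, the classical feedback inhibitor whose promoter is printed in part above, was at 20.9, 16.4, 17.5 and 18 CPM against 34.0, 29.7, 30.0 and 36.4 (0.84 ± 0.10, edgeR adjusted p = 6.18e-06). Neither gene's groups overlapped. TNIP1, an A20-binding partner, went from 76.4, 82.5, 77.5 and 71.9 CPM to 138, 115, 110 and 121 (0.66 ± 0.08, edgeR adjusted p = 1.07e-05), also without overlap.

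NFKBIB and NFKBIZ, the remaining IkB genes, rose least, by 0.25 ± 0.08 and 0.40 ± 0.15. NFKBIB lost its call without SW480 dnLEF1 replicate 1 or 4 (adjusted p of 0.0572 and 0.0666). NFKBIZ lost its call without SW480 GFP replicate 2, 3 or 4 or dnLEF1 replicate 2, 3 or 4 (adjusted p between 0.0524 and 0.117).

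**Figure D2:**
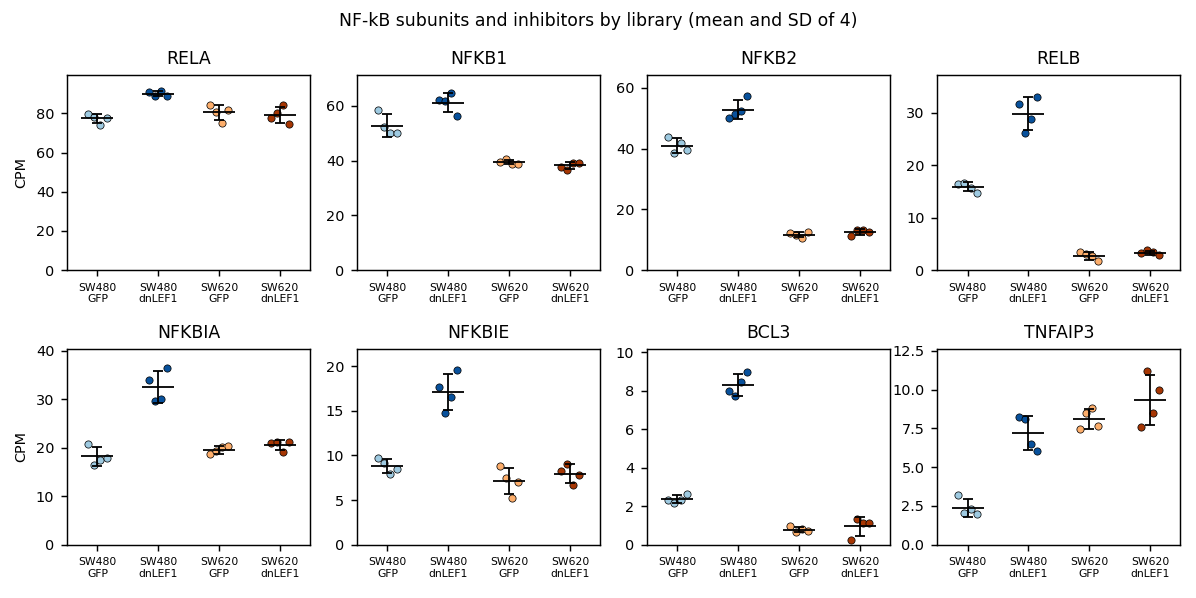
CPM (linear axis from 0) of 4 subunit genes and 4 IkB and feedback inhibitor genes in each of the 16 libraries, by group. Points are libraries, the long bar is the mean and the error bar the SD of 4. In SW480 BCL3 went from 2.36 ± 0.207 to 8.29 ± 0.558 and RELB from 15.9 ± 0.850 to 29.9 ± 3.08, while in SW620 the GFP and dnLEF1 points of these genes overlap.

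Among the adaptors, ligases and kinases, 5 of the 6 tested genes rose in SW480. BIRC3, the inducible ligase cIAP2, was at 14.6, 8.63, 9.66 and 11.1 CPM with GFP and 28.8, 33.1, 31.3 and 33.7 with dnLEF1 (1.52 ± 0.13, edgeR adjusted p = 3.25e-07). TRAF1, an adaptor that is itself an NF-kB target, went from 2.96, 2.37, 3.05 and 3.10 CPM to 8.31, 8.04, 7.49 and 6.90 (1.42 ± 0.14, edgeR adjusted p = 8.61e-07). MAP3K14, the NF-kB-inducing kinase of the noncanonical branch, went from 19.6, 14.8, 14.5 and 17.6 CPM to 26.5, 35.3, 36.2 and 39.6 (1.05 ± 0.12, edgeR adjusted p = 9.23e-06). No dnLEF1 library of these genes fell into the GFP range. TRAF2, the adaptor that brings the cIAP ligases to receptors, moved less, from 42.3, 38.2, 38.3 and 37.6 CPM to 65.1, 51.9, 50.3 and 60.0 (0.54 ± 0.09, edgeR adjusted p = 0.00016). BIRC2, the constitutive cIAP1, rose by 0.22 ± 0.07 and TRAF3, which with TRAF2 and the cIAPs keeps MAP3K14 low, fell by 0.18 on the log2 scale. BIRC2 lost its call without SW480 GFP replicate 2 or 3 or dnLEF1 replicate 2, 3 or 4 (adjusted p between 0.054 and 0.0934), and TRAF3 lost its call without GFP replicate 1, 3 or 4 or dnLEF1 replicate 1, 2 or 4 (between 0.063 and 0.106) and with no filter on low counts (0.0628). The receptor CD40 had 9 counts over the 4 GFP libraries and 16 over the dnLEF1 libraries.

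The ELR chemokines attract neutrophils through CXCR1 and CXCR2. Of the 5 among the members, 3 could be tested in SW480, and 2 of these fell. CXCL8, or interleukin-8, was at 2.29, 2.23, 2.00 and 3.69 CPM with GFP and 0.525, 0.720, 0.337 and 0.556 with dnLEF1 (-2.24 ± 0.28, edgeR adjusted p = 1.43e-05). CXCL1 went from 1.54, 2.01, 1.43 and 2.19 CPM to 0.787, 0.593, 0.210 and 1.20 (-1.36 ± 0.35, edgeR adjusted p = 0.00491). Every dnLEF1 library lay below every GFP library for both. CXCL3 was at 0.660 ± 0.143 and 0.558 ± 0.352 CPM and was not called (-0.23 ± 0.38). CXCL2 had 28 counts over the GFP libraries and 53 over the dnLEF1 libraries, without a test, and CXCL5 had 2 and 2. The kappaB block shared by the CXCL1, CXCL2 and CXCL3 windows thus stood beside a fall, an untested level and a change that was not called. The same letters, GGGAATTTCCC, were also in the windows of CXCL5, which was not tested, and NFKBIB, which rose by 0.25. Reads that fit more than 1 place are in no count. How many of them came from CXCL1, CXCL2 and CXCL3 was not examined, so the levels of these chemokines are uncertain.

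Over all members with a promoter window, kappaB consensus matches were found in 9 of 16 that rose in SW480, 3 of 4 that fell, 2 of 3 that were not called and 4 of 7 that were not tested. Among those that rose at least 2-fold, TNFAIP3, BIRC3 and IL32 had a match in the window and BCL3, TRAF1, MAP3K14 and TNFAIP2 had none. Of those that fell, TRAF3, REL and CXCL1 had a match and CXCL8 had only the looser core.

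Of the other chemokines, 3 of 4 tested rose in SW480. CCL2, which attracts monocytes, was at 0.316, 0.134, 0.190 and 0.274 CPM with GFP and 8.18, 7.62, 7.62 and 10.4 with dnLEF1. That was 21 against 772 counts over the 4 libraries, a log2 change of 5.16 ± 0.23, given as a description since the filter let the gene in through dnLEF1 alone. CX3CL1, the membrane-tethered fractalkine, went from 1.42, 1.25, 1.76 and 1.69 CPM to 4.42, 5.08, 4.46 and 3.75 (1.54 ± 0.17, edgeR adjusted p = 5.1e-06). CXCL16, a second tethered chemokine, went from 24.9, 26.8, 25.6 and 22.8 CPM to 60.4, 50.4, 54.8 and 49.4 (1.11 ± 0.08, edgeR adjusted p = 7.68e-08). None of these genes had overlapping groups. CCL5, which attracts T cells, was at 0.596 ± 0.100 and 0.972 ± 0.525 CPM and was not called. CCL20, which attracts CCR6-bearing cells to the gut epithelium, had 3 counts over the GFP libraries and none over the dnLEF1 libraries, which allows at most 0.0327 CPM there.

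Among the 9 cytokines, 3 of 4 tested rose in SW480 and the classical inflammatory ones were close to undetected. CSF1, the macrophage growth factor, was at 0.869, 0.805, 0.905 and 1.14 CPM with GFP and 5.69, 4.74, 4.59 and 6.25 with dnLEF1 (2.51 ± 0.19, edgeR adjusted p = 6.97e-08). LIF, a cytokine of the interleukin-6 family, went from 90.1, 94.4, 91.2 and 92.2 CPM to 102, 152, 138 and 131 (0.51 ± 0.10, edgeR adjusted p = 0.000523). Both rose without overlap. IL32, an inducible cytokine, was at 4.62, 0.670, 1.09 and 1.5 CPM against 12, 3.98, 4.5 and 5.51 (1.68 ± 0.47, edgeR adjusted p = 0.00849). Replicate 1 was the highest in both groups for IL32, and its GFP value lay inside the dnLEF1 range. Without GFP replicate 1 the IL32 change was 2.58 (adjusted p = 0.000307), and without dnLEF1 replicate 1 it was 1.199 (adjusted p = 0.0338). LTB, a TNF-family ligand of the noncanonical branch, was at 0.790 ± 0.578 and 1.20 ± 0.281 CPM and was not called, but was called higher without GFP replicate 1 (1.20, adjusted p = 0.0151).

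TNF had 7 counts over the GFP libraries, at 0.0790, 0.134, 0.0476 and 0.0456 CPM, and 4 over the dnLEF1 libraries, at 0, 0.0423, 0 and 0.139. IL6 had no count with GFP, which allows at most 0.0331 CPM, and 5 counts with dnLEF1, all in replicates 2 and 3. IL1A had no count in any of the 16 libraries, IL1B had 1 and 3, and IL18 had 6 and 5. At this depth differences in these cytokines were not detectable.

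Of the further induced genes, TNFAIP2 rose, from 38.8, 46.5, 44.8 and 48.6 CPM with GFP to 113, 128, 124 and 126 with dnLEF1, without overlap (1.46 ± 0.08, edgeR adjusted p = 1.88e-09). SOD2, the mitochondrial superoxide dismutase and a common NF-kB readout, was at 35.5 ± 2.81 and 38.3 ± 5.60 CPM and was not called (0.11 ± 0.10). Markers of cell types also moved in SW480. Of 7 epithelial markers tested 6 fell and CDH1 rose, and the sum of the 10 listed was 10700 to 12500 CPM with GFP and 7090 to 8510 with dnLEF1. The summed level of 12 myeloid markers was 5.13 to 6.34 CPM in the GFP libraries and 9.27 to 11.9 in the dnLEF1 libraries, with 2 of 3 tested (CD68 and LYZ) higher, while PTPRC, FCGR3A, MRC1, AIF1 and TYROBP had no count with dnLEF1. The 8 endothelial markers summed to 0.908 to 1.46 and 2.45 to 4.00 CPM, with VWF higher, the only gene of the list that could be tested, and EMCN without a count. The 12 lymphocyte markers (2.29 to 3.57 and 2.67 to 3.03 CPM) and 10 fibroblast markers (18.1 to 33.6 and 23.0 to 53.5 CPM) overlapped between the groups in their sums. No lymphocyte marker was called of 2 tested, while of 4 fibroblast markers COL1A1 rose and LUM and PDGFRB fell. The part of these markers in the members' changes was not tested.

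**Figure D3:**
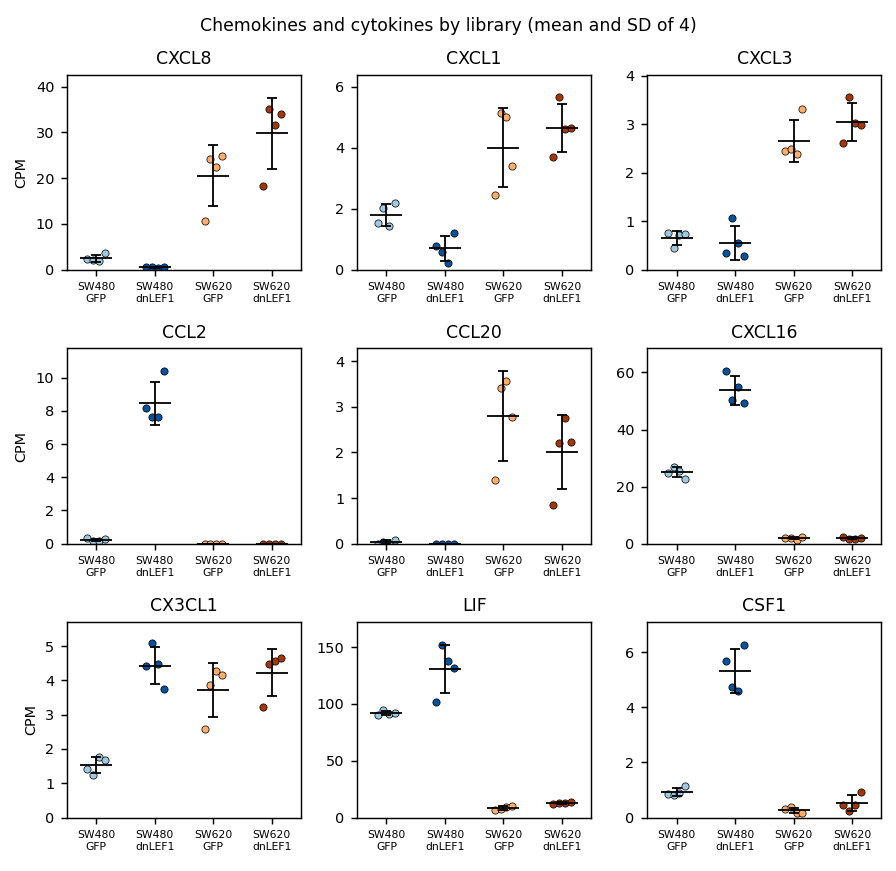
CPM (linear axis from 0) of 9 chemokines and cytokines in the 16 libraries by group; points are libraries, the long bar is the mean and the error bar the SD of 4. CXCL8 was at 2.56 ± 0.769 and 0.534 ± 0.157 CPM in SW480 and 20.6 ± 6.73 and 29.8 ± 7.84 in SW620, while CCL2 had counts in SW480 alone.

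Genes next to some members moved with them in SW480. For RELA, 22 of the 24 nearest tested genes (12 on each side) were higher with dnLEF1, with a median of 0.24 against RELA's own 0.22. For CX3CL1 it was 22 of 24 with a median of 0.48, for RELB 19 of 23 with 0.33, and for TRAF2 18 of 24 with 0.34. Around CSF1, CCL2, TNFAIP3 and BIRC3 the medians were -0.10, -0.14, 0.01 and -0.12. Around members that fell, 5 of 22 neighbours were higher for CXCL8 and for CXCL1 (median -0.12). For REL it was 6 of 24 (-0.155) and for TRAF3 7 of 23 (-0.084). How often neighbours share a sign over all genes was not computed. The part of the neighbourhood in a member's change was not tested.

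In SW620, dnLEF1 moved a single member past the threshold, the cytokine LIF. Of the 31 members tested, edgeR called 1 higher and 0 lower, against 6.03% of all genes that rose and 2.43% that fell (8.46% either way). At an unadjusted p below 0.05 the same fit gave 5 members higher (CCL5, CXCL8, IL18, LIF and TRAF1) and 3 lower (BIRC3, IL32 and TNFAIP2), and DESeq2 and limma voom each called 2 higher and 0 lower. A fit blocked on replicate number called 3 higher (LIF, TRAF1 and CXCL8) and 1 lower (TNFAIP2), though the labels do not pair the libraries. No member was called with a change of at least 2-fold, a class that held 0.870% of all genes upward and 0.532% downward. The libraries did not overlap for 3 members (LIF, TRAF1 and CCL5), against 13.7% of all genes. The median log2 change of the 31 was 0.03, and that of all genes 0.00. The summed myeloid markers were at 4.85 to 6.17 CPM with GFP and 6.17 to 7.43 with dnLEF1, and LYZ rose, while PTPRC had no count. Lymphocyte markers summed to 5.99 to 10.4 and 9.99 to 13.9 CPM, and CD4 rose. Of 7 epithelial markers tested CDH1 and VIL1 fell and 0 rose, with sums of 9930 to 12200 and 8530 to 10800 CPM. The fibroblast sums (22.4 to 34.4 and 29.2 to 32.8 CPM) and endothelial sums (1.12 to 1.38 and 1.10 to 2.01 CPM) overlapped. COL1A1 fell and VWF was not called. The part of these markers in the members' values was not tested.

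LIF was at 7.07, 7.19, 8.89 and 10.4 CPM with GFP and 12.1, 13.2, 12.9 and 14.1 with dnLEF1 (0.64 ± 0.12, edgeR adjusted p = 0.00479). Every dnLEF1 library was above every GFP library, and the change was 0.66 (adjusted p = 0.0102) without SW620 GFP replicate 3, the library that stood apart. TRAF1 lay at the threshold, with 0.771, 1.06, 1.49 and 1.97 CPM against 2.18, 2.27, 2.67 and 2.28 (0.83 ± 0.25, edgeR adjusted p = 0.0519), and passed it in DESeq2 (adjusted p = 0.0306), in limma voom (0.0355) and without GFP replicate 4 (1.10, adjusted p = 0.012). The groups of TRAF1 did not overlap.

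No subunit gene and no IkB or feedback inhibitor gene was called in SW620. RELA was at 84.3, 80.4, 75.2 and 81.6 CPM with GFP and 77.5, 80.3, 84.3 and 74.6 with dnLEF1, a log2 change of -0.02 with an interval of 2 standard errors from -0.14 to 0.10. NFKB1 was at 39.6, 40.6, 38.9 and 38.8 CPM against 37.8, 36.6, 39.3 and 39.1, with an interval from -0.16 to 0.07. NFKBIA was at 18.6, 19.3, 20.2 and 20.2 CPM against 21.0, 21.2, 19.1 and 21.1, with an interval from -0.075 to 0.215. All these groups overlapped, and the SW480 change of NFKBIA (0.84) lay outside its interval in SW620. TNFAIP3 was at 7.48, 8.49, 8.79 and 7.64 CPM against 7.62, 11.2, 8.49 and 9.99 (0.20 ± 0.13), and CXCL8 at 10.6, 24.3, 22.5 and 24.8 CPM against 18.2, 35.1, 31.7 and 34.0 (0.53 ± 0.23, edgeR adjusted p = 0.211). Replicate 1 was the lowest library of both SW620 groups for CXCL8, and without replicate 1 of both groups, an alternative chosen after the data were seen, the change was 0.49 (adjusted p = 0.00193). With a block on replicate number the CXCL8 change was 0.55 (edgeR adjusted p = 3e-05).

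Other members with a change of at least 0.45 that were not called in SW620 were IL32 (-1.15 ± 0.41, 0.766 ± 0.262 and 0.335 ± 0.194 CPM), IL18 (0.74 ± 0.31), CCL5 (0.56 ± 0.25), TNFAIP2 (-0.54 ± 0.20, 3.23 ± 0.606 and 2.23 ± 0.551 CPM) and CCL20 (-0.45 ± 0.32). IL18 and TNFAIP2 passed the threshold without GFP replicate 1, at adjusted p of 0.0316 and 0.0451. TNFAIP2 also passed it with a block on replicate number (edgeR adjusted p = 0.0352). The 9 members too low to be tested were CD40, CXCL5, CCL2, IL1A, IL1B, IL6, TNF, LTB and CSF1. CCL2, CXCL5, IL1A, IL1B and IL6 had no count in either SW620 group, which allows at most 0.0353 and 0.0349 CPM. TNF had 2 counts with GFP, at 0, 0.0461, 0.0532 and 0 CPM, and 1 with dnLEF1, at 0, 0, 0 and 0.0415.

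**Figure D4:**
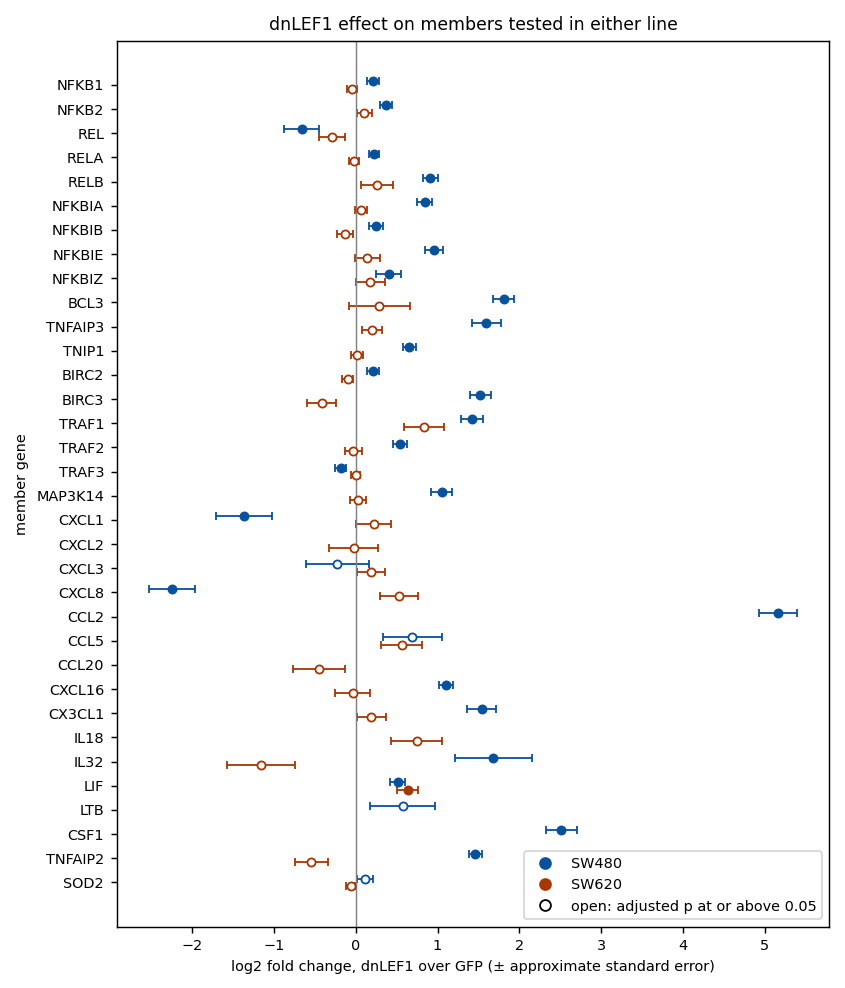
Log2 fold change of dnLEF1 over GFP with its approximate standard error for each member tested, SW480 in blue and SW620 in brown; filled points passed an edgeR adjusted p of 0.05. In SW480 27 of 31 points are filled and spread from -2.24 (CXCL8) to 5.16 (CCL2), while in SW620 the single filled point is LIF at 0.64.

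The difference between the lines was tested directly, as the dnLEF1 effect in SW620 minus that in SW480 in a fit of all 16 libraries. This fit held 34 members. At an edgeR adjusted p below 0.05, 18 members were called with a value below 0 (a smaller rise or a larger fall in SW620) and 2 with a value above 0, against 12.3% and 16.2% of all genes (28.5% either way). The median of the members was -0.575, and that of all genes 0.02. CCL2 is among the 34 and in this median but was not called and, with no count in SW620, its fitted difference has no meaning. By role, 3 of 5 subunits (NFKB1, RELA and RELB) had a lower effect in SW620. So did 6 of 7 IkB and feedback inhibitor genes (all but NFKBIZ) and 4 of 6 adaptors and kinases (BIRC2, BIRC3, TRAF2 and MAP3K14).

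IL32 rose in SW480 and had a value below 0 that was not called in SW620 (difference -2.84 ± 0.85, edgeR adjusted p = 0.0161). The IL32 difference was -3.725 without SW480 GFP replicate 1 and -2.357 without SW480 dnLEF1 replicate 1. CXCL8 had the opposite sign, as it fell in SW480 and was not called in SW620 (2.78 ± 0.48, edgeR adjusted p = 0.00017). The difference was -2.005 ± 0.19 for TNFAIP2, -1.94 ± 0.23 for BIRC3 and -1.39 ± 0.22 for TNFAIP3. It was 1.59 ± 0.43 for CXCL1 and -1.52 ± 0.37 for BCL3. CSF1 differed by -1.46 ± 0.48 (edgeR adjusted p = 0.0282), with 22 and 47 counts over the SW620 groups, and lost its call without SW620 GFP replicate 1 or 2 or dnLEF1 replicate 1 or 3 (adjusted p up to 0.109). LIF, called higher in both lines, had a difference of 0.13 ± 0.16 that was not called. REL also was not called (0.37 ± 0.29), nor was TRAF1 (-0.58 ± 0.28). A share of the smaller differences lay near the threshold: those of BIRC2, NFKB1, NFKBIB, RELA and RELB (-0.31, -0.26, -0.38, -0.24 and -0.65). They lost their call in 2, 11, 7, 2 and 3 of 21 alternatives, mostly with 1 library left out. The adjusted p was then up to 0.0527, 0.0786, 0.0906, 0.0581 and 0.0668.

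The lines differed in these genes before dnLEF1 came into play. The comparison of SW620 GFP with SW480 GFP uses the same control libraries as the comparisons above, so its values are set beside them and not related to them. Of 31 members tested, 9 were higher in SW620 and 15 lower, against 37.7% and 40.3% of all genes (78.0% either way), and libraries did not overlap for 22 of the 31, against 72.5% of all genes. The share called either way is near that of all genes. At least 2-fold higher were 7 members and at least 2-fold lower 11, against 9.41% and 19.6% of all genes. The line and any handling that differed between the lines cannot be told apart. CCL20 and IL18 passed the filter only through SW620, and CSF1 only through SW480, so these were bound to differ. Without them 7 of 28 members were higher and 14 lower, 5 and 10 of them at least 2-fold.

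Higher in SW620 GFP were the 3 tested ELR chemokines, CCL20, CX3CL1, IL18, TNFAIP3, REL and SOD2. CXCL8 was at 2.56 ± 0.769 CPM in SW480 GFP and 20.6 ± 6.73 in SW620 GFP (3.00 ± 0.26, edgeR adjusted p = 8.16e-08). CXCL3 was at 0.750, 0.447, 0.714 and 0.729 CPM in SW480 and 2.45, 2.49, 2.40 and 3.31 in SW620 (2.00 ± 0.23, edgeR adjusted p = 1.35e-06). IL18, an interleukin of epithelial cells that inflammasomes activate, was at 0.118, 0, 0.0952 and 0.0456 CPM against 1.27, 0.738, 0.532 and 0.491, a log2 difference of 3.41 ± 0.57 that is a description, given the filter. The groups of these genes did not overlap. CCL20 had 3 counts in SW480 GFP and 234 in SW620 GFP, a ratio of 83.3 with a 95% counting interval of 28.1 to 407. Its SW620 GFP libraries were at 1.41, 3.41, 3.57 and 2.77 CPM. In the dnLEF1 cells CCL20 had no count in SW480 and 177 in SW620, at least 63.0-fold higher against a floor of 3 counts over the group.

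Lower in SW620 GFP were TNFAIP2, CXCL16, LIF, RELB, NFKB2, CSF1, BCL3, IL32, BIRC3, TRAF1, TNIP1, MAP3K14, NFKBIZ, TRAF3 and NFKB1. TNFAIP2 was at 44.6 ± 4.23 CPM in SW480 GFP and 2.36, 3.46, 3.35 and 3.75 in the SW620 GFP libraries (-3.79 ± 0.12, edgeR adjusted p = 1.54e-12). CXCL16 was at 25.0 ± 1.69 CPM against 2.13, 1.98, 1.28 and 2.23 (-3.70 ± 0.13, edgeR adjusted p = 4.44e-12). LIF was at 92.0 ± 1.82 CPM against 8.40 ± 1.60 (-3.46 ± 0.10, edgeR adjusted p = 4.78e-13). These were gaps of more than 10-fold, with no library near the other line. RELB was at 15.9 ± 0.850 CPM against 3.49, 3.14, 2.66 and 1.79 (-2.53 ± 0.15, edgeR adjusted p = 1.63e-09). IL32 lost its call without SW480 GFP replicate 1 (-0.53, adjusted p = 0.17), and also without SW620 GFP replicate 2 or 4 and in limma voom (adjusted p = 0.0792). CCL2 had 21 counts in SW480 GFP and none in SW620 GFP, at least 6.56-fold lower there, and 772 against none in the dnLEF1 cells, at least 241-fold lower. RELA, NFKBIA, NFKBIB, NFKBIE, BIRC2, TRAF2 and CCL5 were not called. NFKBIE lay near the threshold (-0.31, edgeR adjusted p = 0.061). It was called lower in DESeq2 (adjusted p = 0.045), in limma voom (0.0495) and with the replicate block (0.0205). Without SW620 GFP replicate 1 edgeR called NFKBIE (adjusted p = 0.014) and TRAF2 (0.0265) lower.

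**Figure D5:**
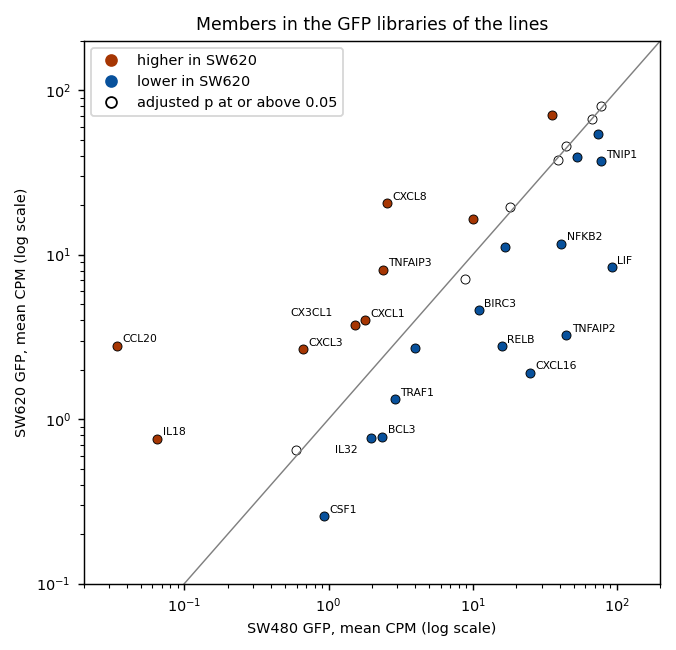
Mean CPM of the members tested in the GFP libraries of SW480 (x axis) and SW620 (y axis), both on log scales, with the line of equal level; colour shows the edgeR call. The ELR chemokines, CCL20 and IL18 lie above the line, while LIF, TNFAIP2, CXCL16 and RELB lie below it.

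Other genes of the pathway were read from lists that are not members. In SW480, of 43 tested receptors, adaptors and kinases upstream of NF-kB, 16 rose and 11 fell, with a median log2 change of 0.08. That was 62.8% called either way, against 48.5% of all genes. The death receptor TNFRSF21 rose by 1.26 ± 0.07, while TNFRSF1B (the second TNF receptor), NOD2 (a sensor of bacterial cell wall) and IL18R1 (a chain of the IL18 receptor) fell by 1.00, 2.81 and 2.84 on the log2 scale. Of 19 further negative regulators 6 rose and 1 fell, 36.8% called against 48.5% of all genes. NLRC5 (1.077 ± 0.13), NKIRAS1 (0.75 ± 0.10), TNIP2 (0.50 ± 0.09) and USP18 (0.64 ± 0.18) were among those that rose. Of the 5 genes of linear ubiquitin chains 3 rose (RBCK1, SHARPIN and SPATA2). Of 42 other NF-kB target genes 24 rose and 5 fell, with a median of 0.49, where 24.2% of all genes rose and 24.4% fell. PLAU, the urokinase gene, was higher by 2.32 ± 0.10, VEGFA by 1.43 ± 0.08 and TNFSF15 by 3.54 ± 0.23.

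Of 17 other cytokines tested in SW480, 10 rose and 2 fell. Over all genes 24.2% rose and 24.4% fell, and the lists below of 5 and 7 genes are too short to read a share from. CSF2, the granulocyte-macrophage growth factor, was at 2.18 ± 0.428 and 18.3 ± 2.83 CPM (3.06 ± 0.15), and TNFSF4, the OX40 ligand, rose by 6.05 ± 0.39. IL10, an anti-inflammatory cytokine, was at 17.4 ± 1.62 and 2.83 ± 0.405 CPM (-2.61 ± 0.13), and IL16 fell by 2.70 on the log2 scale. Of 5 other chemokines CCL26 rose (2.52 ± 0.29) and CXCL14 and CXCL6, an ELR chemokine, fell by 1.65 and 2.08 on the log2 scale. Of 7 tested receptors of the member cytokines, IL6R rose by 0.87 ± 0.10 and CXCR6 by 0.78 ± 0.31, while IL1R2, a decoy receptor of interleukin-1, fell by 3.95 and CXCR4 by 0.23 on the log2 scale. CXCR1, CXCR2 and CCR2, the receptors of CXCL8 and CCL2, were too low to be tested in either line. Passage of the low-count filter through 1 group alone was checked for members only. Of the listed genes that rose in SW480, TNFRSF11A, TLR6, CD69, TNFSF4, IL34, CCL26 and CXCR6 were too low to be tested between the GFP groups. They may thus have passed through dnLEF1 alone and been bound to differ, so their rises are descriptions. For listed genes that fell, passage through GFP alone was not checked either. Large falls, such as those of IL18R1, NOD2 and IL1R2, are therefore descriptions too.

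In SW620 the same lists gave few calls, against 6.03% of all genes higher and 2.43% lower. Of 38 upstream genes 3 rose, TLR4 (1.501 ± 0.19), TNFRSF12A (0.33 ± 0.09) and IKBKB (0.22 ± 0.06). RBCK1 (0.24 ± 0.07) was called among 5 linear ubiquitin genes, TAP1 (0.30 ± 0.08) and PSMB9 (1.31 ± 0.26) among 32 other targets, and IL6R (0.58 ± 0.14) among 4 receptors. These genes all rose. Whether any of them, such as TLR4 or PSMB9, passed the filter through dnLEF1 alone was not checked. Of the 19 negative regulators, 11 cytokines and 4 chemokines tested, edgeR called none.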

How the data were processed

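The authors deposited raw counts of reads per gene for each library. The submitters' processing notes name Trimmomatic, TopHat2, HTSeq, DESeq2 and hg38. Versions, gene models and strandedness of counting: not given in the sources used here. Reads of overlapping and antisense genes may therefore be mixed. Each file ends in 5 lines that name no gene, reads aligned to more than 1 place among them. These lines took 20% to 24.3% of a library, but 50.5% of SW620 GFP replicate 3, and no library size or test includes them.

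The labels gave the groups. Within groups, every pair of libraries differed by more than sampling noise (lowest chi-square per degree of freedom 1.96), and all 16 were kept as samples. Counts were tested over all genes with the quasi-likelihood test of edgeR 4.0.16 (R 4.3.3), after TMM scaling and the filter of filterByExpr, at a Benjamini-Hochberg adjusted p below 0.05, each comparison on its own 8 libraries and the difference between lines on all 16. The script was tested on simulated data. Standard errors are approximate, the size of the log2 change divided by the root of the F statistic, and intervals span 2 of them to each side. Levels are CPM scaled over all 16 libraries, with mean ± SD of 4. Groups at 0 counts were given a floor of 3 counts over the group, and counts of 1 to 3 a 95% exact interval, both covering counting error only.

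Gene positions and exon lengths came from GENCODE 44 on hg38, promoter sequences from RefSeq. The alternatives were DESeq2 1.42.0, limma 3.58.1 voom, DESeq2 size factors, no filter on low counts, a replicate block, 1 fit of all libraries, and each library left out.

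The members and lists were chosen with earlier results of these data known. Values per library are given for up to 20 called members of SW480 and 12 of SW620 with a mean of at least 1 CPM in a group, largest change first, and for NFKB1, RELA, NFKBIA, TNFAIP3, CXCL8, TNF and IL6 whatever their values. For the GFP comparison and the line difference the 8 largest called members are described, and for other lists up to 4 called genes with the smallest adjusted p in each dnLEF1 comparison. Members beyond this rule, such as TRAF1, IL18 and TNFAIP2 in SW620, were named after their values were seen.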

Additional observations from a re-analysis of the deposited data

Results flagged for a closer look

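A library was marked where its gap to the nearest other library of its group was large for the range of the group (Dixon's 95% value). Chance does this in about 1 of 20 groups. Of 116 groups of values, those with under 20 counts, all of TNF and IL6 among them, were not checked. In the rest, 10 were marked. In SW620, replicate 1 had the lowest CXCL8 with GFP (10.57 CPM, others 22.52 to 24.84) and the lowest CX3CL1 with dnLEF1 (3.215 CPM, others 4.481 to 4.645). Replicate 1 also had the highest TRAF2 in both GFP groups, 42.26 CPM in SW480 (others 37.61 to 38.28) and 45.94 CPM in SW620 (others 34.24 to 35.25). CXCL3 was low in SW480 GFP replicate 2 (0.447 CPM, others 0.7142 to 0.7504) and high in SW620 GFP replicate 4 (3.306 CPM, others 2.396 to 2.49). NFKBIA was low in SW620 dnLEF1 replicate 3 (19.07 CPM, others 21.02 to 21.18). Of the genes that check the construct, LEF1 was low in SW480 dnLEF1 replicate 4 (172.8 CPM, others 269.1 to 272.6) and in SW480 GFP replicate 3 (48.85 CPM, others 52.26 to 52.88), and AXIN2 was low in SW480 dnLEF1 replicate 4 (63.06 CPM, others 71.53 to 72.5).

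The dnLEF1 effect differed between the lines, by edgeR's interaction test, for 20 of 34 members (CCL2, whose fitted value has no meaning, is among the 34 and was not called). The effect in SW620 minus that in SW480, on the log2 scale, was above 0 for CXCL8 (2.78) and CXCL1 (1.59). It was below 0 for IL32 (-2.836), TNFAIP2 (-2.005), BIRC3 (-1.936), BCL3 (-1.518), CSF1 (-1.464), TNFAIP3 (-1.388), CX3CL1 (-1.345), CXCL16 (-1.145) and MAP3K14 (-1.014). It was between -1 and 0 for NFKBIE (-0.813), NFKBIA (-0.767), RELB (-0.654), TNIP1 (-0.635), TRAF2 (-0.567), NFKBIB (-0.38), BIRC2 (-0.31), NFKB1 (-0.257) and RELA (-0.241).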

How the results depend on the processing

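Over all comparisons, 1936 of 2057 member values under an alternative kept their direction and their side of the threshold, 63 were no longer called, 22 became called and 36 changed sign, none of the last called on either side. For the SW480 comparison the count of members that fell was 4, and it was 2 without GFP replicate 1 and 2 without replicate 1 of both groups, the last an alternative chosen after the data were seen. Leaving out 1 library gave 20 to 24 members higher and 2 to 4 lower in SW480, 1 to 2 and 0 to 1 in SW620, 9 to 10 and 14 to 17 in the GFP comparison, and 2 to 2 and 14 to 19 in the line difference. In SW620 the count of members that rose was 1, and 2 with no filter, with DESeq2, with limma voom, in the fit of all 16 libraries and without replicate 1 of both groups. The cause of these moves was not tested.

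Same-numbered libraries of GFP and dnLEF1 deviated together at r of 0.269, -0.018, -0.106 and 0.016 in SW480 and 0.388, -0.023, 0.219 and 0.237 in SW620, so the numbers were not taken to pair the libraries. With the replicate block 22 members rose and 3 fell in SW480, NFKBIZ (adjusted p = 0.051) and TRAF3 (0.0719) losing their calls. In SW620 3 rose and 1 fell with the replicate block (LIF, TRAF1, CXCL8 and, lower, TNFAIP2), and 676 genes fell in place of 324. CXCL8 was then at 0.552 (adjusted p = 3e-05) and TNFAIP2 at -0.551 (adjusted p = 0.0352). SW620 libraries 1, 3 and 4 and SW480 library 1 correlated best with their own number and the others did not, a hint from the data and not the design.

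Sign changes are given on the log2 scale, and none had an adjusted p below 0.367. In SW480 CXCL3 was at 0.025 without replicate 1 of both groups. In SW620 without replicate 1 of both groups CXCL2 was at 0.154, RELA at 0.009, TRAF2 at 0.051 and TRAF3 at -0.004. TRAF3 was at -0.005 with DESeq2 size factors, -0.005 in DESeq2 and 0 with no filter, and with libraries left out at -0.014 to 0.027. Leaving out single libraries in SW620 gave ranges of -0.179 to 0.044 for CXCL16, -0.141 to 0.147 for CXCL2, -0.016 to 0.093 for MAP3K14, -0.059 to 0.003 for RELA, -0.02 to 0.057 for TNIP1 and -0.089 to 0.082 for TRAF2. In the GFP comparison BIRC2 was at 0 with no filter and in the fit of all libraries and -0.053 to 0.043 with a library left out, and NFKBIB at -0.057 to 0.091. In the line difference CCL5 was at 0.011 with voom, and leaving out single libraries gave -0.325 to 0.279 for CCL5 and -1.213 to 0.115 for LTB. With 4 libraries a group, standard errors were widest for IL32 in both dnLEF1 comparisons (0.47 in SW480 and 0.41 in SW620), and differences in IL6, TNF, IL1A, IL1B, CXCL5 and CD40 could not be tested at this depth.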

Other observations

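In SW620, replicate 1 was the lowest library of both the GFP and the dnLEF1 group for 8 of the 31 members tested: TNFAIP3, TRAF1, CXCL1, CXCL8, CCL20, CX3CL1, LIF and TNFAIP2. For no other replicate number of SW620 was this so for more than 2 members. The same share over all genes was not computed. Over all genes that passed the filter, the replicate 1 libraries of SW620 also deviated together (r = 0.388). In SW480, replicate 1 was the highest of both groups for 5 members, TNFAIP3, TRAF2, IL32, LTB and SOD2.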
